A study of Mus musculus with 10 samples.

Results

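The order in which 2 manipulations were applied to mouse embryonic stem cells (ESCs) was compared through 4 of the 10 libraries of the series. Cells labelled Usp17le OE-Dux KD, called plasmid-first below, overexpressed Usp17le before a short hairpin RNA (shRNA) against Dux was transfected. Cells labelled Dux KD-Usp17le OE, called hairpin-first below, carried the Dux shRNA before the Usp17le plasmid was transfected. Each order had 2 libraries, and the comparison covered 14659 of 24370 gene symbols, those with at least 0.5 scaled TPM in at least 2 of the 10 libraries. The starting cells were the groups Usp17le OE, which received the Usp17le plasmid, and Dux KD, which received the Dux shRNA, both under puromycin, and WT cells were cultured without manipulation, each in 2 libraries. The labels give the line of all groups as J1, whereas the methods of the study name the line E3 for overexpression, so the line rests on the labels. The labels mention no selection after the second transfection, and do not say whether a group was 1 clone, whether its 2 libraries came from separate cultures, or how long after each transfection RNA was taken. Cells given an empty vector or a non-targeting shRNA were not analysed here. The order of transfection therefore cannot be told apart from time in culture, cell passage or the handling of the 2 derived populations. Nor can order be told apart from the level of Usp17le, which in hairpin-first libraries lay within the range of WT (0.934 and 1.60 scaled TPM). Plasmid-first libraries held 8.99 and 8.86. Every p below measures the spread between libraries, which may be technical only.

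At any time a few cells of an ESC culture pass through a transient state close to that of the 2-cell embryo. These cells transcribe 2C genes, a set that is transiently active at zygotic genome activation and includes the Zscan4, Tcstv, Usp17l and Trim43 families. DUX is a homeodomain transcription factor of the 2-cell embryo that binds and activates many of these genes. USP17LE belongs to the USP17L deubiquitinases, which remove ubiquitin from proteins and are themselves encoded by 2C genes on chromosome 7. Comparing both orders asks whether cells labelled with both manipulations reach the same expression state whichever came first.

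The study describes stretches of coding sequence that are identical among the Usp17l genes. Reads that map to several places were dropped, so reads from such stretches may be missing from the counts. The 100 bases before the RefSeq start, which do not show how reads were placed, are printed for 6 Usp17l and Zscan4 genes. They are from GRCm38.p6, written 5′ to 3′ on the strand of the gene, with the letters TATAAA, a match to the TATA box, in capitals.
Zscan4c, chr7:11005645-11005744, plus strand: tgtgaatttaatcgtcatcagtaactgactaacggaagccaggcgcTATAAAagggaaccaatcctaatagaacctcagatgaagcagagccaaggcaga
Zscan4d, chr7:11166149-11166248, minus strand: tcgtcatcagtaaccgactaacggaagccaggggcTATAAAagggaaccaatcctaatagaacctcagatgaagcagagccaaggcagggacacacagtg
Zscan4f, chr7:11397815-11397914, plus strand: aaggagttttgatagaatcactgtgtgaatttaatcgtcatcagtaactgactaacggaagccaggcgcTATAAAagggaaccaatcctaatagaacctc
Usp17la, chr7:104856916-104857015, plus strand: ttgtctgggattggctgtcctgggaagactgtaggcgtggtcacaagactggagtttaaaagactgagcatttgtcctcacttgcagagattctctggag
Usp17lb, chr7:104842584-104842683, minus strand: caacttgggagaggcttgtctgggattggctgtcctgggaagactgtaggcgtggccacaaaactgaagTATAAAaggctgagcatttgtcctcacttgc
Usp17lc, chr7:103416596-103416695, plus strand: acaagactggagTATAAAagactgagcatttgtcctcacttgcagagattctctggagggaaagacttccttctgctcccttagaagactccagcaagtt
Of 11 listed Usp17l and Zscan4 genes, 8 matched an entry in the promoter table. The longest run of identical bases was taken for each pair of genes within the 300-base window around the start (250 before and 50 after). Within a family it ranged from 29 bases between Usp17lb and Usp17lc to 127 bases between Zscan4c and Zscan4f, with 90 bases between Usp17lc and Usp17ld. Between a Zscan4 and a Usp17l gene it was at most 9 bases. The letters TATAAA occurred on either strand of that window in 7 of the 8 genes, with Usp17la as the exception, and in 13.6% of all 32851 promoters of the table. A letter match is a description and not a site in use.

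The manipulated genes were read first. Values are scaled TPM, reads per gene length and library total, divided by a size factor per library so that the median gene is level. Usp17le (chromosome 7, 104768049 to 104777470, minus strand, GRCm38) was at 8.99 and 8.86 in plasmid-first and 0.934 and 1.60 in hairpin-first cells, next to 0.440 and 0.384 for Dux KD, 30.0 and 35.2 for Usp17le OE and 2.17 and 0.790 for WT cells. Hairpin-first libraries, although labelled as carrying the plasmid, lay within the range of WT and above both Dux KD libraries, so every direction below is drawn between libraries with these labels. The log2 difference by order (hairpin-first minus plasmid-first throughout) was -2.77 ± 0.39 (SE) for Usp17le, with a limma adjusted p of 0.000721, and plasmid-first cells held 6.80 times the level of hairpin-first cells. Reads from the plasmid and from the gene itself cannot be told apart in this table, and Usp17lb, a paralog that was not on the plasmid, rose with it, from 2.16 and 2.15 in WT to 67.5 and 69.6 in Usp17le OE.

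Dux was close to the limit of detection. It received 15 and 16 reads in plasmid-first and 6 and 2 in hairpin-first cells, next to 4 and 0 for Dux KD, 80 and 75 for Usp17le OE and 5 and 12 for WT cells. Both plasmid-first libraries were above both hairpin-first libraries, but the log2 difference of -1.30 ± 0.51 did not pass the test (adjusted p = 0.0699). Since Dux lies in a tandem array of copies, reads that could not be placed on 1 copy are missing from these counts. No Dux gene other than Dux itself passed the filter on low values.

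All 5 Usp17l genes were lower in hairpin-first than in plasmid-first cells, where 15.7% of all genes tested were called in that direction (adjusted p under 0.05). Usp17lb stood at 11.0 and 12.6 in plasmid-first and at 2.05 and 1.84 in hairpin-first cells, a log2 difference of -2.54 ± 0.42. Usp17la stood at 3.82 and 3.55 against 0.242 and 0.652 (-2.90 ± 0.41), Usp17lc at 5.29 and 3.81 against 0.825 and 0.827 (-2.31 ± 0.71), and Usp17ld at 0.932 and 1.77 against 0.244 and 0.132 (-2.30 ± 0.44). No gene of the family overlapped between the orders, as was so for 72.4% of all genes tested (33.2% with plasmid-first and 39.2% with hairpin-first cells higher). The call of Usp17lc (adjusted p = 0.0355) was lost without the trend and robust options of limma (0.0548) and without any 1 of the 4 libraries of the orders (0.0825 to 0.138), either WT library or the second Usp17le OE library, at a log2 difference of -2.08 to -2.54. In all 5 genes the mean of plasmid-first cells was below Usp17le OE and above WT.

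The Zscan4 family, which encodes zinc-finger proteins of the 2-cell embryo that act at telomeres, split into 3 genes that passed the test and 2 that did not. Zscan4d was at 8.41 and 10.5 in plasmid-first and 2.29 and 1.57 in hairpin-first cells, next to 0.539 and 0.454 for Dux KD, 85.7 and 93.5 for Usp17le OE and 3.52 and 3.82 for WT cells (-2.25 ± 0.18, adjusted p = 1.29e-05). Hairpin-first libraries were thus above Dux KD and below WT, and plasmid-first libraries were above WT and below Usp17le OE. Zscan4a (-2.20 ± 0.15), annotated as an unprocessed pseudogene, and Zscan4f (-1.78 ± 0.18) were also lower in hairpin-first cells. Zscan4c stood at 8.87 and 7.10 against 2.30 and 2.28 but did not pass the test (-1.75 ± 0.77, adjusted p = 0.126), and its 2 Dux KD libraries spread from 0.0858 to 1.05. It passed when only the 4 libraries of the comparison were fitted, at the same difference. Zscan4b, at 0.218 and 0.426 against 0.182 and 0.308, overlapped between the orders (-0.27 ± 0.47, adjusted p = 0.686).

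**Figure D1:**
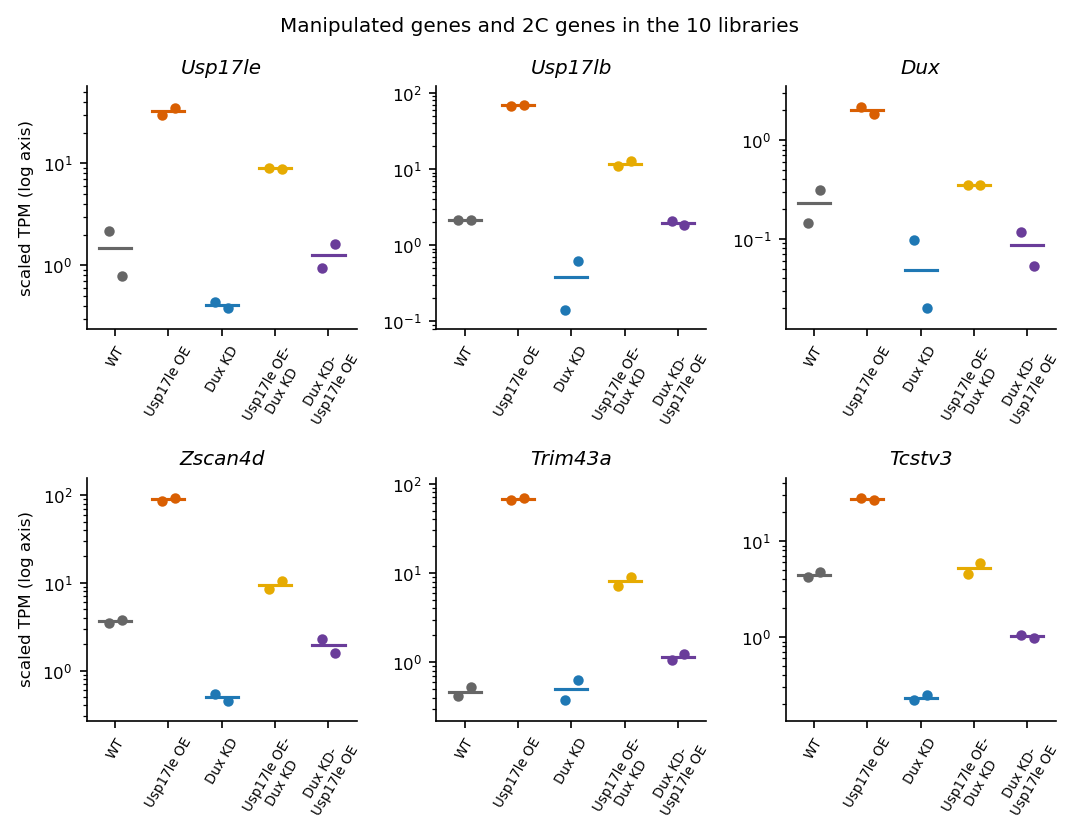
Scaled TPM on a log axis of Usp17le, its paralog Usp17lb, Dux and the 2C genes Zscan4d, Trim43a and Tcstv3 in the 5 groups, with 1 point per library and a line at the mean of the 2 libraries; the Dux KD library with no Dux read is drawn at the bottom of its panel. In all 6 genes the Usp17le OE-Dux KD points lie above the Dux KD-Usp17le OE points, as in 33.2% of all genes tested, and below the Usp17le OE points. Apart from Dux, these genes are among the 12 largest differences in this direction that were picked for no overlap.

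The wider list of 2C genes held no gene called higher in hairpin-first cells. Of 60 listed 2C genes, the Zscan4 family included and the Usp17l and Dux genes apart, 37 passed the filter on low values, 27 were lower and 0 were higher in hairpin-first cells and 10 did not pass the test, at background rates of 15.7% and 23.6% of all genes, and 25 of the 27 were past 2-fold. Counting every gene past 2-fold, 3.16% of all genes were lower and 1.53% were higher in hairpin-first cells. The median log2 difference of the 37 was -1.81, against 0.03 over all genes tested. A gene could pass the filter through the Usp17le OE libraries alone, where most of these genes are high, so the counts are a description of the 37 and not of all 60. Trim43a, a tripartite-motif gene of the 2-cell embryo, was at 7.15 and 8.90 in plasmid-first and 1.05 and 1.23 in hairpin-first cells (-2.71 ± 0.22), with 66.1 and 69.4 in Usp17le OE. Tcstv3, a 2C gene on chromosome 13, was at 4.57 and 5.90 against 1.05 and 0.984 (-2.25 ± 0.16). Tdpoz4, a TD and POZ domain gene, was at 3.34 and 2.33 against 0 and 0.582 (-3.47 ± 0.84, adjusted p = 0.0118). The smallest called differences in the list were those of Ddit4l (-0.41 ± 0.10) and Usp26 (-0.52 ± 0.09), which stayed at or above 6.44 scaled TPM in every library.

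Among the 5 groups, plasmid-first cells stood well under Usp17le OE for the 2C genes, as with Trim43a (means of 8.02 and 67.8), Zscan4d (9.48 and 89.6) and Usp17lb (11.8 and 68.6). Hairpin-first cells lay above Dux KD cells for several 2C genes, as with Zscan4d (means of 1.93 and 0.497), Tcstv3 (1.02 and 0.235) and Usp17lb (1.94 and 0.378). These differences from the starting cells are given as levels only.

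Across the transcriptome, 5757 genes (39.3%) differed by order. Of these, 3457 were higher in hairpin-first and 2300 higher in plasmid-first cells, which are the 23.6% and 15.7% given above. Only 688 of the 5757 were past 2-fold, 225 higher in hairpin-first and 463 higher in plasmid-first cells, and 137 were past 4-fold. With TPM as deposited, which is not level at the median gene (median log2 difference -0.23), the split of calls turned over. Then 1172 genes (7.97%) were higher and 5495 (37.4%) lower in hairpin-first cells, of 14706 tested. The direction of small differences below therefore holds relative to the median gene. List counts below stand beside these shares as deposited, and beside 23.6% and 15.7% otherwise. The libraries of 1 order correlated at Pearson's r of 0.987 across genes, and libraries of different orders at 0.972 to 0.973.

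The differences by order ran in the direction of the starting cells more often than against it. Dux KD and Usp17le OE cells, which share no library with the comparison of orders, differed at 9900 genes, 33.5% higher in Dux KD and 34.0% higher in Usp17le OE, and past 2-fold at 9.65% and 13.3%. Of the 463 genes past 2-fold higher in plasmid-first cells, 342 (73.9%) were also called higher in Usp17le OE than in Dux KD cells and 10 (2.16%) the other way. The 342 genes made up 6.86% of the 4988 higher in Usp17le OE. Of the 225 genes past 2-fold higher in hairpin-first cells, 119 (52.9%) were called higher in Dux KD, 2.42% of the 4912 in that list, and 37 (16.4%) were called higher in Usp17le OE. Over all genes tested the log2 differences of the 2 comparisons had a Pearson's r of 0.357 and a Spearman's rho of 0.30, which describes genes and not independent replicates. The difference between the orders was the smaller, with a median absolute log2 difference of 0.277 against 0.561 between the starting cells. The 2 differences were themselves unequal at 7771 genes (53.0%, limma, adjusted p under 0.05).

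**Figure D2:**
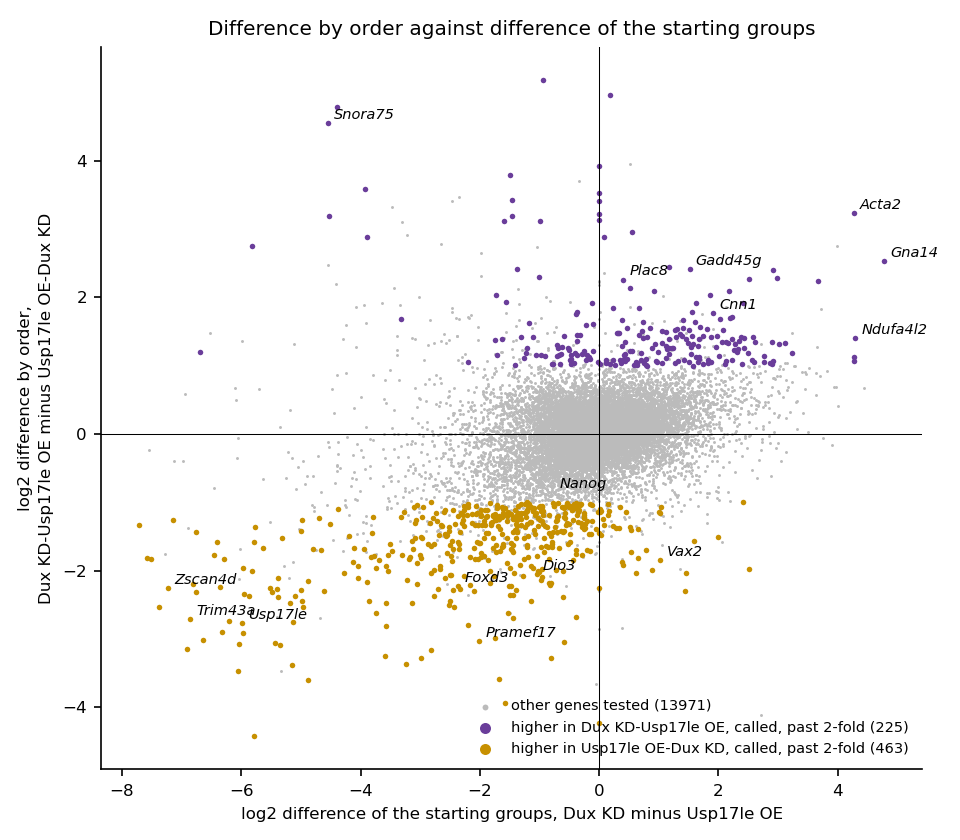
Each point is 1 of the 14659 genes tested, with the log2 difference of the starting groups (Dux KD minus Usp17le OE) on the x axis and the log2 difference by order (Dux KD-Usp17le OE minus Usp17le OE-Dux KD) on the y axis. The 463 genes higher in Usp17le OE-Dux KD past 2-fold lie mostly to the left, where Usp17le OE is higher, and the 225 genes higher in Dux KD-Usp17le OE spread to both sides.

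The 2 orders sat unevenly among the other groups. Between 2 single libraries of 1 group, which carry more error than group means, the median absolute log2 difference was 0.099 to 0.123. Between the means of hairpin-first and Dux KD cells it was 0.132. It was 0.467 between plasmid-first cells and Usp17le OE, the cells they were made from, and 0.258 between plasmid-first and Dux KD cells. Hairpin-first cells were nearer to WT (0.312) than plasmid-first cells were (0.480), and nearer for 71.1% of genes tested. Of the 225 genes past 2-fold higher in hairpin-first cells, plasmid-first cells had the lowest mean of the 5 groups in 105, and WT had the highest in 152. Of the 463 in the other direction, Usp17le OE had the highest mean in 272 and plasmid-first cells in 179. Over all 14659 genes, plasmid-first cells were lowest in 2931 and highest in 2425, WT highest in 3780 and Usp17le OE highest in 4800. The 225 and 463 genes were picked through the plasmid-first level, which itself favours an extreme rank of plasmid-first cells. Distances between a group's means and between single libraries are not on equal terms, since means carry less error.

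Of 30 naive pluripotency factors tested, 15 were lower and 4 higher in hairpin-first cells and 11 did not pass the test, with a median log2 difference of -0.26. As deposited, 26 were lower and 2 higher. The shares over all genes were 15.7% lower and 23.6% higher, or 37.4% and 7.97% as deposited. Nanog, a homeodomain factor of the naive network, was at 784 and 758 in plasmid-first and 430 and 424 in hairpin-first cells, next to 464 and 440 for Dux KD, 764 and 771 for Usp17le OE and 330 and 324 for WT cells (-0.85 ± 0.03). Plasmid-first cells thus lay close to the high level of Usp17le OE, and hairpin-first cells lay slightly under Dux KD. Klf4, a Krüppel-like factor of the same network, was at 151 and 152 in plasmid-first cells and between 89.7 and 92.0 in the 6 libraries of Usp17le OE, Dux KD and hairpin-first cells. Its difference by order was -0.75 ± 0.04, while the difference between the starting cells did not pass the test (0.01, adjusted p = 0.90). Tbx3, a T-box factor, fell from 108 and 109 to 55.9 and 53.6 (-0.98 ± 0.05), and Tet2, a dioxygenase that oxidises 5-methylcytosine, from 16.9 and 16.7 to 8.93 and 9.49 (-0.86 ± 0.08). Pou5f1, the OCT4 gene, was 0.16 ± 0.03 higher in hairpin-first cells, and Sox2 (0.09, adjusted p = 0.224) and Esrrb (0.05, adjusted p = 0.274) did not pass. Lefty1, an inhibitor of Nodal signalling, was at 7.11 and 7.04 in plasmid-first and 14.2 and 12.6 in hairpin-first cells (0.91 ± 0.23).

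Among formative and primed epiblast genes, 6 of 19 were lower and 3 higher in hairpin-first cells, or 11 and 1 as deposited. Background shares were 15.7% lower and 23.6% higher, or 37.4% and 7.97% as deposited. Foxd3, a forkhead factor of the epiblast and neural crest, had one of the largest differences, at 20.3 and 22.3 in plasmid-first and 5.06 and 3.91 in hairpin-first cells (-2.23 ± 0.15, adjusted p = 5.50e-06). It followed the starting cells closely, with 28.1 and 22.9 for Usp17le OE and 4.71 and 4.96 for Dux KD, whereas WT libraries stood at 0.444 and 0.538. Nodal, a TGF-β ligand of the epiblast, had means of 56.4 and 22.9 in the 2 orders (-1.30 ± 0.06) and 158 in Usp17le OE. Etv4, an ETS factor downstream of FGF and ERK signalling, was the highest called in the other direction (0.62 ± 0.05).

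Primitive endoderm genes were also lower in hairpin-first cells, 11 of 18 tested with 1 higher, and a median of -0.49. For this and the next lists, all genes stood at 15.7% lower and 23.6% higher, or 37.4% and 7.97% as deposited. Gata4, a defining GATA factor of this lineage, was at 3.15 and 2.95 in plasmid-first cells and at 1.07 to 2.19 in the 8 libraries of the other groups (-1.36 ± 0.24). Gata6 (-1.25 ± 0.17), Sox17 (-1.19 ± 0.37) and the follistatin gene Fst (-1.52 ± 0.24) were lower too, and the basement membrane collagens Col4a1 and Col4a2 fell by 1.19 and 1.15 on the log2 scale. Amn, which encodes the endocytic receptor subunit amnionless, was the exception (1.01 ± 0.19). Levels of the 3 defining factors were low, summing to 7.42 and 7.07 scaled TPM in plasmid-first and 2.67 and 2.89 in hairpin-first cells. In bulk RNA, fewer cells of a type and less RNA per cell cannot be told apart. Of 19 trophoblast genes, 7 were lower and 3 higher, or 10 and 2 as deposited, among them Gata3 (-1.49 ± 0.39) and Gata2 (1.05 ± 0.15), 2 GATA factors that trophoblast cells share. The defining trophoblast factors Cdx2 and Elf5 were at most at 0.765 scaled TPM in the 4 libraries and did not pass the test, and the third, Tfap2c, which ESCs also express, was higher in hairpin-first cells (38.5 and 38.7 against 50.4 and 51.8, 0.40 ± 0.07). Of 12 mesoderm and endoderm genes, 2 were lower, 1 of them Kdr, the VEGF receptor (-1.64 ± 0.44), and 1 was higher, or 3 and 0 as deposited. Of 10 neural genes, 3 were higher, led by Pax6 (1.57 ± 0.20), a paired-box factor of the eye and forebrain at 1.58 and 1.53 against 5.30 and 4.34, and Tubb3 was lower (-0.67 ± 0.07). As deposited, 2 neural genes were higher and 2 lower.

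Germ cell genes showed 9 of 22 lower and 3 higher in hairpin-first cells, or 14 and 0 as deposited. Among all genes, 15.7% were lower and 23.6% higher, or 37.4% and 7.97% as deposited. Asz1, a gene of the piRNA pathway, was at 15.9 and 12.1 in plasmid-first and 4.58 and 4.34 in hairpin-first cells (-1.62 ± 0.17). Dazl, an RNA-binding protein of germ cells, was at 147 in both plasmid-first libraries and 58.5 and 55.9 in hairpin-first libraries (-1.36 ± 0.05). Ddx4, the vasa helicase, went the other way (0.48 ± 0.07) and also went against its starting cells, but did not pass as deposited (0.22, adjusted p = 0.0546).

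Several genes of smooth and striated muscle were among the largest differences toward hairpin-first cells, whereas their list as a whole was near the median gene. Acta2, smooth muscle α-actin (chromosome 19, 34241090 to 34255590, minus strand), was at 6.75 and 7.57 in plasmid-first and 67.6 and 69.3 in hairpin-first cells, next to 40.0 and 40.7 for Dux KD, 2.22 and 1.79 for Usp17le OE and 60.8 and 56.6 for WT cells. The log2 difference by order was 3.24 ± 0.10 (adjusted p = 8.49e-08), a 9.46-fold higher level in hairpin-first cells, which lay above WT. Cnn1, calponin, was at 3.84 and 3.18 in plasmid-first and 11.6 and 12.7 in hairpin-first cells (1.77 ± 0.18). Jsrp1, a sarcoplasmic reticulum protein, rose by 2.24 ± 0.30, and Myl3, a myosin light chain, by 1.71 ± 0.27. In the list of contractile and fibroblast genes, 8 of 18 were higher, 3 lower and 7 not called, against 23.6% higher and 15.7% lower over all genes. The median of the list was 0.07, against 0.03 over all genes. As deposited, 6 were higher and 6 lower, with a median of -0.18 against -0.23. The 3 lower genes were Cald1 (-0.77 ± 0.06), Col1a2 and Col5a1, and the fibroblast collagen Col3a1 and the matrix genes Postn, Lum and Dcn stayed under the filter at no more than 0.12 scaled TPM in the 4 libraries. The summed level of 8 fibroblast feeder markers was 27.7 and 27.9 in plasmid-first and 25.2 and 24.0 in hairpin-first cells, and most of it was Thy1.

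Other genes with large differences toward hairpin-first cells belonged to varied classes. Gadd45g, a stress-induced regulator of growth, was at 2.39 and 3.38 in plasmid-first and 14.2 and 16.9 in hairpin-first cells, next to 7.33 and 6.17 for Dux KD, 2.01 and 2.60 for Usp17le OE and 75.4 and 76.9 for WT cells (2.41 ± 0.18). Plac8, a placenta-specific gene, was at 33.2 and 38.1 in plasmid-first and 167 and 175 in hairpin-first cells (2.26 ± 0.06), between Dux KD at 93.5 and 94.2 and WT at 276 and 258. Phlda2, an imprinted gene that restrains placental growth (chromosome 7, 143501545 to 143503150), was at 49.9 and 51.4 against 163 and 155 (1.65 ± 0.06), levels close to those of Usp17le OE (50.4 and 43.6) and of Dux KD (141 and 145). Gna14, a G protein α subunit, was 5.77-fold higher (2.53 ± 0.42), and Rab3il1, an exchange factor for Rab3 proteins, 4.87-fold higher (2.28 ± 0.16) in hairpin-first cells. Lrrc51 and Mipol1 differed by 1.76 ± 0.27 and 1.67 ± 0.16. Snora75, a small nucleolar RNA, had the largest fitted difference of the named genes (4.55 ± 1.34, adjusted p = 0.0403), but it is a short entry with 0 in 1 plasmid-first and 1 Dux KD library, and its call was lost as deposited (0.0585), after correction for gene length (0.0626), with the replicate block (0.0608) and without any 1 of 7 single libraries (0.052 to 0.157). Without the first plasmid-first library its log2 difference was 3.001.

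On the plasmid-first side, genes named outside the families above included Pramef17, a gene of the PRAME family (7.96 and 4.13 against 0.527 and 0.711, -3.03 ± 0.35), Fbp1, the gluconeogenic fructose bisphosphatase (5.58 and 6.24 against 1.79 and 0.803, -2.20 ± 0.34), and Ctgf, a matricellular target of YAP and TGF-β signalling (21.0 and 24.0 against 5.63 and 6.81, -1.84 ± 0.15). Dio3, an imprinted enzyme that inactivates thyroid hormone, was at 26.7 and 24.8 in plasmid-first cells, above all other groups, whose libraries ranged from 5.32 to 16.0 (-2.05 ± 0.14). Vax2, a homeobox gene of the ventral eye, was likewise highest in plasmid-first cells, at 6.89 and 5.35 against 0.949 to 3.01 elsewhere (-1.85 ± 0.34). These 2 genes exceeded both starting groups in both libraries, whereas Foxd3, Ctgf and Fbp1 had their highest mean in Usp17le OE. Pramef17 also had its highest mean in plasmid-first cells (6.04), but its lower library lay within the range of Usp17le OE (4.76 and 3.87).

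**Figure D3:**
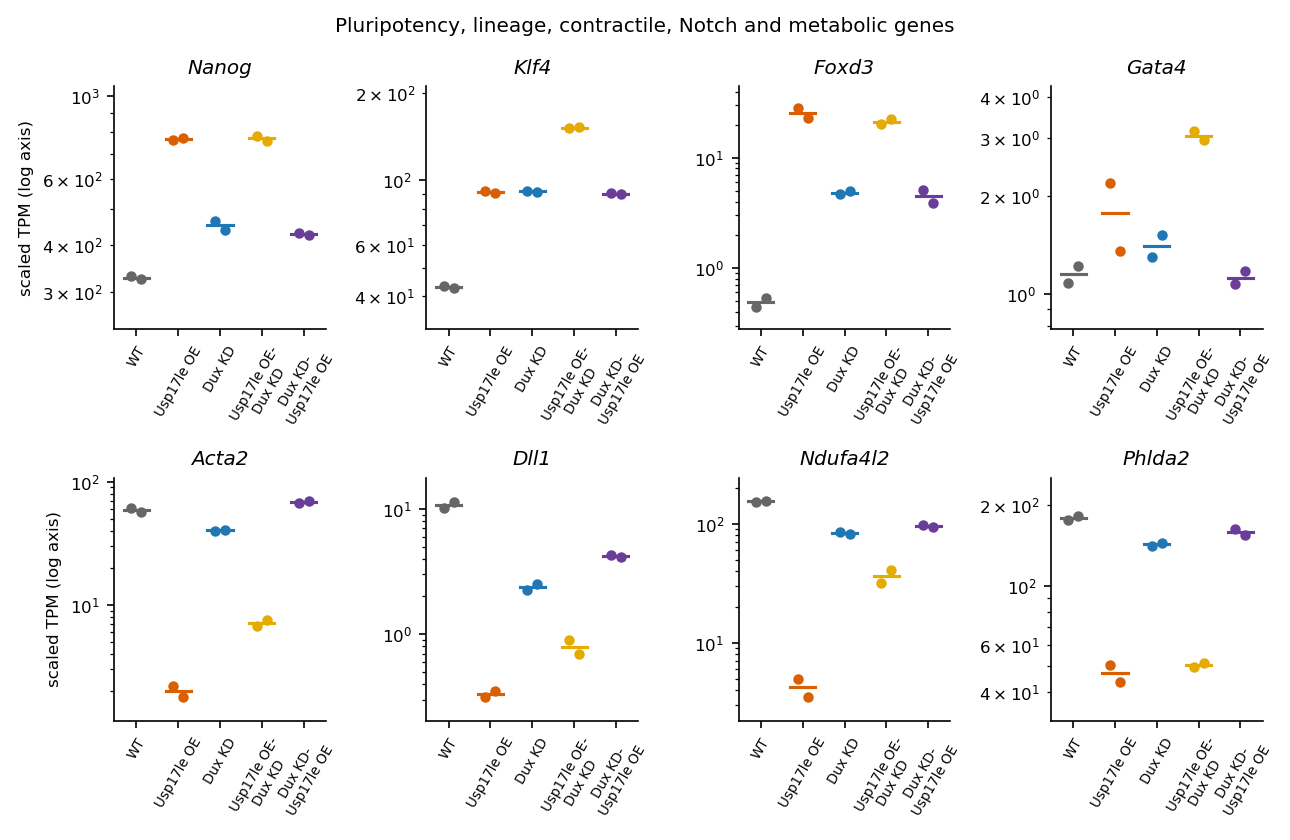
Scaled TPM on a log axis of Nanog, Klf4, Foxd3, Gata4, Acta2, Dll1, Ndufa4l2 and Phlda2 in the 5 groups, with 1 point per library and a line at the mean. Nanog, Klf4, Foxd3 and Gata4 are higher in Usp17le OE-Dux KD and the other 4 genes higher in Dux KD-Usp17le OE, and the 2 orders do not overlap in any panel, as in 72.4% of all genes tested.

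In the Notch pathway the ligand Dll1 was higher and the 4 receptors lower in hairpin-first cells, while the list as a whole was divided. Dll1, a Delta ligand, was at 0.891 and 0.692 in plasmid-first and 4.27 and 4.09 in hairpin-first cells, next to 2.27 and 2.49 for Dux KD, 0.317 and 0.350 for Usp17le OE and 10.2 and 11.4 for WT cells (2.27 ± 0.18). Of the receptors, Notch3 (14.5 and 15.1 against 9.40 and 9.47, -0.64 ± 0.10), Notch4 (-0.58), Notch2 (-0.44) and Notch1 (-0.33) were each lower in hairpin-first cells, as was Rbpj, the DNA-binding partner of the cleaved receptor (-0.45). After correction for gene length, Notch1 (-0.17, adjusted p = 0.271) and Notch2 (-0.28, adjusted p = 0.153) no longer passed, and as deposited all 4 receptors did. Over the list, 4 genes were higher and 6 lower of 20, or 5 and 4 after correction for gene length. The shares over all genes were 23.6% higher and 15.7% lower, or 20.6% and 15.5% after that correction.

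The glycolytic, hypoxia-induced and cholesterol synthesis lists stood on the hairpin-first side. Shares over all genes were 23.6% higher and 15.7% lower, or 7.97% and 37.4% as deposited. Of 22 glycolytic enzymes and transporters, 18 were higher and 1 lower, with a median of 0.63, the highest of the lists. Eno3, a muscle-type enolase, was at 11.9 and 14.3 in plasmid-first and 32.7 and 36.5 in hairpin-first cells (1.40 ± 0.12). Aldoc, an aldolase, had means of 34.7 and 86.2 (1.31 ± 0.06), with 10.9 for Usp17le OE, 89.4 for Dux KD and 134 for WT cells. Tpi1, Pgk1 and Ldha, which convert trioses toward lactate, differed by 1.05, 0.82 and 0.77. The exception was Slc2a3, a glucose transporter (822 and 801 against 741 and 751, -0.12 ± 0.03). As deposited, 15 of the 22 were higher and 3 lower. Hypoxia-induced genes, targets of HIF factors that overlap with glycolysis in function, showed 20 of 34 higher and 3 lower, with a median of 0.48, or 16 and 9 as deposited. Ndufa4l2, a mitochondrial protein induced by HIF1, was at 32.1 and 41.1 in plasmid-first and 98.0 and 94.0 in hairpin-first cells, next to 85.0 and 81.7 for Dux KD, 4.96 and 3.48 for Usp17le OE and 154 and 156 for WT cells (1.40 ± 0.16). Bnip3, a mitophagy receptor, had means of 113 and 296 (1.39 ± 0.03). Ak4, an adenylate kinase, was the lowest called (-0.76 ± 0.04). Of 24 cholesterol synthesis genes, 17 were higher and 1 lower (median 0.35), or 7 and 2 as deposited, with Pmvk, phosphomevalonate kinase, at 30.5 and 26.3 against 53.1 and 53.7 (0.91 ± 0.08).

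Several large lists of short genes moved with gene length. Genes under 1000 bases had a median log2 difference of 0.33 (529 higher and 96 lower of 1579), and genes over 4000 bases a median of -0.09 (464 higher and 918 lower of 3934). Genes under 1000 bases took 30.6% and 32.1% of TPM in plasmid-first and 35.7% and 34.7% in hairpin-first libraries, and ribosomal protein genes 21.7% and 22.7% against 25.7% and 25.0%. The part of this trend in each list was measured by removing a smooth trend on gene length from each library, after which 20.6% of all genes were higher and 15.5% lower. Cytoplasmic ribosomal protein genes went from 61 higher and 2 lower of 87 to 40 and 6, and their median from 0.47 to 0.13. Oxidative phosphorylation subunits went from 48 higher and 0 lower of 77 to 22 and 6 (0.40 to 0.06), and replication-dependent histone genes from 11 and 1 of 54 to 5 and 4. After the same correction glycolytic enzymes stood at 18 and 1, cholesterol synthesis genes at 18 and 1 and hypoxia-induced genes at 20 and 2. Lists on the plasmid-first side changed too. ER chaperones and unfolded protein response genes went from 14 lower of 20 to 10, and primitive endoderm genes from 11 of 18 to 9. PRC1 subunits and H2A deubiquitinases went from 9 lower of 31 to 6, whereas naive pluripotency factors went from 15 lower of 30 to 17. In the ribosomal protein, oxidative phosphorylation and histone lists, the highest called entries were Rpl37rt (0.96 ± 0.20), Atp5e, a subunit of ATP synthase (1.12 ± 0.20), and Hist1h2bm (1.92 ± 0.51, with plasmid-first libraries at 0.198 and 0.910). Rpl37rt is annotated as a transcribed processed pseudogene and was listed by its symbol. Rpl10l, a testis-type ribosomal protein gene, was lower in hairpin-first cells (103 and 98.9 against 62.9 and 61.9, -0.69 ± 0.06).

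**Figure D4:**
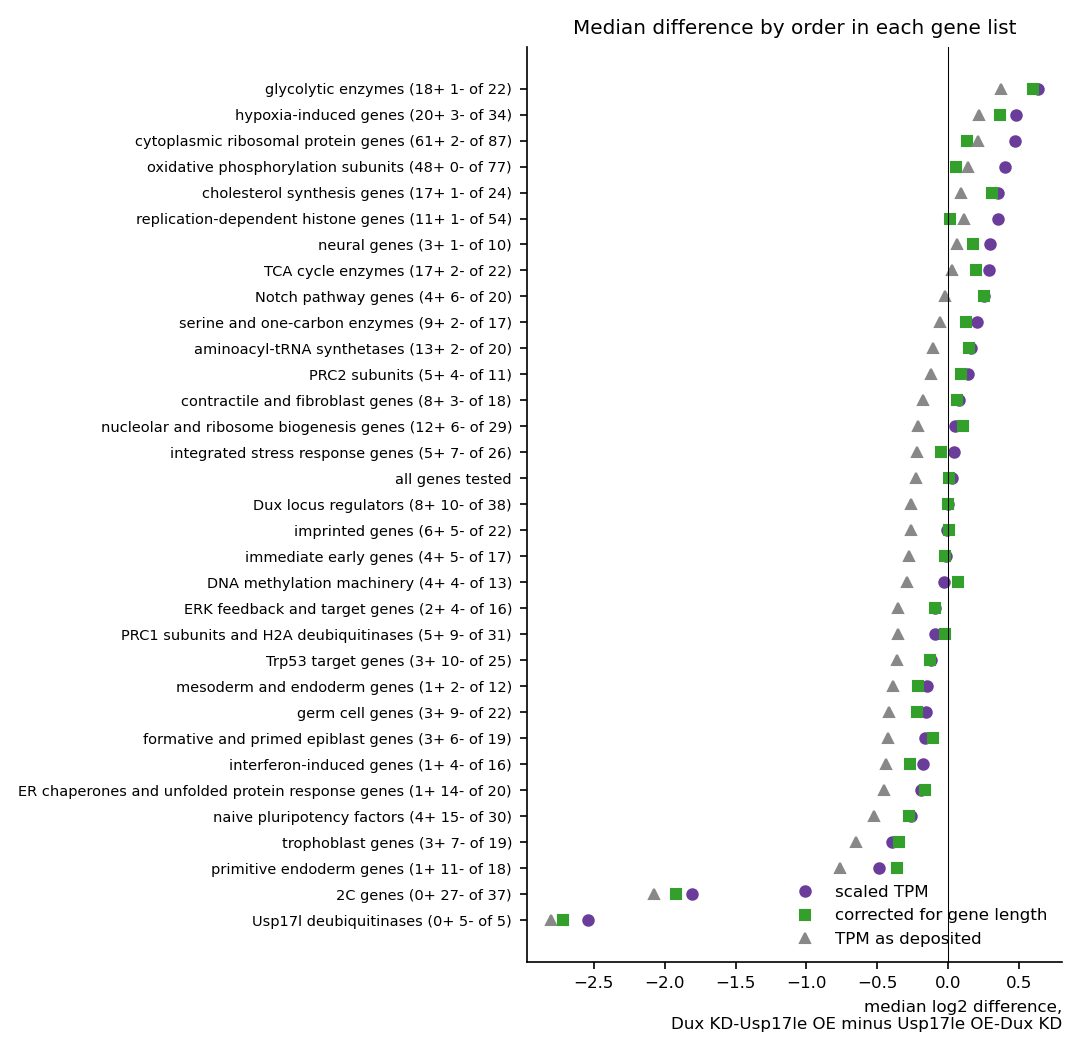
Median log2 difference by order (Dux KD-Usp17le OE minus Usp17le OE-Dux KD) of each gene list on the x axis, for scaled TPM (circles), after correction for gene length (squares) and for TPM as deposited (triangles). The labels give the genes called higher (+) and lower (-) in Dux KD-Usp17le OE of those tested. The Usp17l and 2C lists lie far to the left at -2.54 and -1.81, and the glycolytic list is the farthest to the right at 0.63.

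Smaller differences ran through lists whose direction depends on the scaling. All genes tested stood at 23.6% higher and 15.7% lower, or 7.97% and 37.4% as deposited. TCA cycle enzymes were higher in hairpin-first cells in 17 of 22 genes and lower in 2, but as deposited in 3 and 7, with Sdhc, a subunit of succinate dehydrogenase, at the top (0.65 ± 0.05) and Idh2 lowest (-0.15 ± 0.05). Aminoacyl-tRNA synthetases were higher in 13 of 20 and lower in 2, but as deposited in 1 and 8, led by Vars (0.45 ± 0.04), with Cars lowest (-0.28 ± 0.05). Serine and one-carbon enzymes were higher in 9 of 17 and lower in 2, but as deposited in 4 and 5, with Gldc, of the glycine cleavage system, at 90.4 and 93.1 against 133 and 137 (0.55 ± 0.04). Nucleolar and ribosome biogenesis genes were higher in 12 of 29 and lower in 6, but as deposited in 2 and 19, from Polr1c (0.47 ± 0.04) to Polr1b (-0.30 ± 0.05).

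Stress genes were divided. Their counts stand beside 23.6% higher and 15.7% lower over all genes, or 7.97% and 37.4% as deposited. ER chaperones and unfolded protein response genes were lower in hairpin-first cells in 14 of 20 and higher in 1, with the chaperone Hspa5 at 464 and 457 against 316 and 329 (-0.51 ± 0.04) and Sdf2l1 as the exception (0.38 ± 0.04), or in 17 and 0 as deposited, where Sdf2l1 did not pass (0.12, adjusted p = 0.0954). Of 25 p53 targets, 10 were lower, with the kinase Plk2 lowest (-0.52 ± 0.05), and 3 were higher, among them the receptor Eda2r (0.29 ± 0.09). As deposited, 17 were lower and 0 higher, and Eda2r did not pass (0.03, adjusted p = 0.837). Integrated stress response genes split into 5 higher and 7 lower of 26, or 2 and 14 as deposited. Ddit3, the CHOP transcription factor, was at 35.7 and 34.5 in plasmid-first and 63.7 and 62.2 in hairpin-first cells (0.84 ± 0.14), and Ddr2, a collagen receptor kinase, at 10.7 and 11.0 against 3.03 and 3.09 (-1.79 ± 0.12). Of 16 ERK targets, 4 were lower and 2 higher, or 9 and 1 as deposited, with Phlda1 at 6.99 and 6.93 against 2.89 and 2.93 (-1.23 ± 0.18). Of 17 immediate early genes, 5 were lower and 4 higher, or 10 and 1 as deposited, with Maff, a small MAF protein, as the highest (0.60 ± 0.18). Of 16 interferon-induced genes, 4 were lower, led by the chemokine Cxcl10 (-1.22 ± 0.25), and Bst2, tetherin, was the 1 that was higher (0.88 ± 0.08). As deposited, 10 were lower and 1 higher.

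Genes that act on chromatin were examined because the study concerns ubiquitin on histone H2A, a mark written by PRC1. Among 38 regulators of the Dux locus, 8 were higher and 10 lower in hairpin-first cells, or 3 and 28 as deposited. For these lists the shares over all genes were 23.6% higher and 15.7% lower, or 7.97% and 37.4% as deposited. Myc was at 15.4 and 16.7 in plasmid-first and 7.42 and 6.91 in hairpin-first cells, next to 7.04 and 8.63 for Dux KD, 30.6 and 34.3 for Usp17le OE and 1.41 and 1.46 for WT cells (-1.15 ± 0.11). Lin28a, an RNA-binding protein that with nucleolin represses Dux, was at 61.3 and 60.3 against 96.4 and 96.8 (0.67 ± 0.04). PRC2 subunits showed 5 higher and 4 lower of 11, or 1 and 4 as deposited. The accessory subunit Phf19 was the highest (0.92 ± 0.10) and Jarid2 the lowest (-0.50 ± 0.03). Of 31 PRC1 subunits and H2A deubiquitinases, 5 were higher and 9 lower, or 1 and 20 as deposited, with the deubiquitinases Usp3 (0.51 ± 0.09) and Mysm1 (-0.59 ± 0.11) at the ends. In the DNA methylation machinery, 4 of 13 were higher and 4 lower, or 1 and 8 as deposited. Tet1 was higher (13.4 in both plasmid-first libraries against 19.2 and 20.6, 0.57 ± 0.08), opposite to Tet2. Of 22 imprinted genes, 6 were higher and 5 lower (27.3% and 22.7%), near the shares over all genes. As deposited, 3 of 23 were higher and 10 lower (13.0% and 43.5%), again near those shares. Plagl1, a zinc-finger gene of the imprinted network, was the lowest (3.56 and 4.35 against 1.34 and 1.27, -1.52 ± 0.20) and Phlda2, described above, the highest.

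As a check of the labelled cell type, 6 pluripotency markers (Pou5f1, Sox2, Nanog, Esrrb, Zfp42 and Klf4) were all present in every library, with Pou5f1 between 1485 and 2120 scaled TPM. Their summed level was 4516 and 4531 in plasmid-first and 3936 and 3888 in hairpin-first cells, and the difference came mainly from Zfp42 (-0.48 ± 0.03) and Nanog. Library depth was 34484021 and 37682581 reads in plasmid-first and 45708031 and 33948667 in hairpin-first libraries, within the 32188285 to 50457228 of the whole series. The part of depth, gene length and RNA composition in the differences above was not tested beyond the values given.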

How the data were processed

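Polyadenylated RNA of 10 libraries was sequenced. After trimming with Trim Galore and HISAT2 alignment to mm10, the authors kept reads with a single placement, assigned them to genes in featureCounts without regard to strand, and deposited TPM with gene lengths. Versions and annotation are not given in the sources used here. Reads recovered from TPM and length were whole for 100% of values (tolerance 0.01).

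TPM was divided by median-of-ratios size factors (14902 genes) and log2(scaled TPM + 0.1) was fitted in limma 3.58.1 (R 4.3.3, statmod 1.5.0; trend and robust options) with 5 group means, 5 residual and a median of 4.87 prior degrees of freedom. The pseudocount understates differences of low genes. Tests were two-sided, Benjamini-Hochberg adjusted over 14659 genes, and called at adjusted p under 0.05, with errors as SEs. The script was tested on simulated data. Positions are from GENCODE (GRCm38) for 82 of 84 named genes. Symbols turned into dates (27) were kept and are not named.

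Members, the 33 gene lists and the naming rule were chosen with earlier results of these data known. The rule took the Usp17l and Zscan4 families and Dux, the 12 largest differences per direction among called genes with no overlap and at least 5 scaled TPM (without Gm, Mir, Rik, -ps and -as symbols), and the extreme called member per list at 1 scaled TPM. Of the genes this rule named, 1 is not reported here. Nanog, Klf4, Gata4 and other cell type markers, and further list members, were named after their values were seen. Alternatives covered scaling, pseudocount, filters, groups fitted, empirical Bayes options, replicate block, voom on recovered reads, gene length and leaving out each library.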

Additional observations from a re-analysis of the deposited data

Results flagged for a closer look

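For 11 named genes both comparisons passed the test with opposite signs, and the difference of the differences (by order minus between starting cells, Dux KD minus Usp17le OE) passed it too in limma. Its log2 value was 9.10 for Snora75, 2.38 for Atp5e, 1.72 for Rpl37rt, 1.31 for Eda2r, 0.92 for Ddx4 and 0.65 for Sdf2l1, all of which were higher in hairpin-first than in plasmid-first cells but higher in Usp17le OE than in Dux KD cells. It was -2.87 for Vax2, -1.03 for Cars, -0.74 for Idh2, -0.63 for Slc2a3 and -0.45 for Polr1b, which were higher in plasmid-first cells but higher in Dux KD than in Usp17le OE cells. Snora75, Atp5e and Rpl37rt have 116, 414 and 753 bases, and genes under 1000 bases had a median log2 difference of 0.33 by order. The difference by order of Eda2r, Sdf2l1, Ddx4 and Snora75 did not pass as deposited (0.03, 0.12, 0.22 and 4.45), that of Snora75 also not with the replicate block (adjusted p = 0.0608), and those of Idh2 and Slc2a3 not without the trend and robust options of limma (adjusted p of 0.0849 and 0.0645).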

How the results depend on the processing

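The number of genes called by order (5757) stayed within 1.5 times under each alternative run, from 4007 without 1 library to 6667 as deposited. Its split moved most with scaling: as deposited, 1172 genes were higher and 5495 lower in hairpin-first cells, and for the difference of the differences 2211 and 6460. Leaving out each library in turn gave 1373 to 2276 genes called lower, and each of the 4 libraries of the 2 orders gave a count more than 1.5 times under the 2300 of all libraries, where fewer libraries carry the comparison. Past 2-fold, 688 genes became 254 (98 higher and 156 lower) with a pseudocount of 1 and 445 (275 lower) with a filter of 2 scaled TPM. They became 116 higher and 881 lower as deposited, and 149 higher after correction for gene length. Replicate numbers are shared by label only, and deviations of same-numbered libraries correlated at 0.00595. With the replicate block, 3411 genes were higher and 2201 lower, 5612 in all. With each library left out in turn, the Zscan4b difference ranged from -0.6317 to 0.0955, a reversal, without plasmid-first replicates 1 and 2. Of 84 named genes, 78 kept direction and call as deposited and 83 after correction for gene length, with voom and with the block. Zscan4c passed the test with voom, with a pseudocount of 1 and with only the 4 libraries of the comparison, and Dux passed as deposited and without the trend and robust options. Leaving out 1 library of the orders also ended calls of Tdpoz4, Lefty1, Gata3, Kdr, Slc2a3, Idh2, Eda2r, Maff and Hist1h2bm (adjusted p from 0.0527 to 0.218). The cause of these changes was not tested.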
